A study of Mus musculus with 6 samples.

Results

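Homeobox genes of regional identity were examined in the epithelium of intrahepatic bile ducts from mice with reduced Sox9. The set was chosen by gene symbol and holds Hox, Nkx, Pdx, Cdx, Meis, Pbx, Irx, Cux, Dlx, Lhx, Msx, Barx, Satb and Isl genes and the sine oculis relatives such as Six4 and Six5. The rule also names Pitx and Mnx genes, which are not analysed here. The symbols matched 42 of the 25302 genes in the deposited table, and 25 of these reached the minimum for testing, a mean of 10 normalized reads across all 6 samples. The other 17 were too rare for the test and are described by their reads. Normalized reads are a gene's reads after scaling each library by its own size factor.

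The 3 Control samples had the genotype Sox9fl/fl and the 3 Sox9cKO samples the genotype Sox9fl/fl:AlbCre+/-, so both groups carried the floxed Sox9 alleles. In the second group a Cre recombinase transgene under the albumin promoter was present as well. Age, the number of animals per sample and the way the cells were isolated are not given in the sources used here, so p-values measure the spread between these samples only. Total RNA was depleted of ribosomal RNA and sequenced from stranded libraries with molecular identifiers, with 11883496 to 16191990 reads on genes per sample. Sox9 was checked first, and its mean was 6182 ± 127 normalized reads in Control and 3289 ± 108 in Sox9cKO (SD, n = 3), which followed the labels (log2 fold change -0.91, limma adjusted p 0.00501). The biliary markers Krt19, Krt7 and Epcam had at least 11480, 1732 and 5501 normalized reads in each sample. Samples with the same replicate number in the labels deviated from their group means together, so a fit with the number as a block was run beside the fit without it.

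Homeobox genes encode transcription factors that bind DNA through a shared fold, the homeodomain. Hox genes lie in clusters and mark position along the body axis in the order in which they lie in the cluster, and proteins of the TALE families (Meis, Pbx) bind DNA together with Hox proteins. Pdx1 is known for its role in the pancreas and duodenum, which adjoin the bile duct in the embryo. Sox9 itself is not a homeobox gene but an HMG box factor whose sites hold letters such as ACAAT or ACAAAG.

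The 250 bases upstream of the annotated start are shown for 2 of the genes described below. Lhx4 had the lowest Sox9cKO to Control ratio in the set, and Hoxa5 was the most abundant Hox gene per kilobase of exon. The sequences are RefSeq's on GRCm38.p6, read 5′ to 3′ on the minus strand of each gene (chr1:155742028-155742277 for Lhx4 and chr6:52204588-52204837 for Hoxa5), with matches to ACAAT or ACAAAG on either strand in capitals.
Lhx4: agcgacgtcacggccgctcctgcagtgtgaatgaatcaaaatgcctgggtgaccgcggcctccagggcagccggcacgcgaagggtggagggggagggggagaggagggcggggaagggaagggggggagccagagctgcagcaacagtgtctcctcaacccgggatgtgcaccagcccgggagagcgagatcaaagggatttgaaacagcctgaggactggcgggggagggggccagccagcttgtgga
Hoxa5: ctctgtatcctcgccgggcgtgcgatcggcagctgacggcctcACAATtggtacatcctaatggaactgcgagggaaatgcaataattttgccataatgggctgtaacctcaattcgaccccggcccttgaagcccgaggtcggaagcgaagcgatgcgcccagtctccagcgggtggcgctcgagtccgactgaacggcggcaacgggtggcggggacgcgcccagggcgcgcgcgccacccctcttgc
The Lhx4 window held no match and the Hoxa5 window 1, an ACAAT that begins 207 bases upstream of the start. Of 39 such windows, which belong to 29 of the 42 genes, 13 (33.3%) held either motif on either strand, against 38.8% of all 32851 windows in the table. A match describes letters in the window and is not a measured binding site.

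One comparison was implied by the design, that of Sox9cKO with Control. Irx3 alone passed the threshold, and it was higher in Sox9cKO. This was 1 of 25 tested homeobox genes, beside 2.97% of all 17153 genes tested (limma, Benjamini-Hochberg adjusted p under 0.05). Higher calls made up 2.03% of all genes tested and lower calls 0.939%, and no homeobox gene that was tested was called lower. With the replicate block Irx3 was again the 1 homeobox gene called, beside 8.05% of all genes (5.06% higher and 2.99% lower). An unadjusted p under 0.05 was found for 6 of the 25, against 17.8% of all genes. The median log2 fold change was 0.27 over the 25 genes and 0.036 over all genes. The groups did not overlap for 6 genes that were higher and 2 that were lower in Sox9cKO, 8 of 25, beside 24.2% of all genes tested (13.4% higher and 10.8% lower). The shares called and not overlapping lay near the background, so the genes are described one by one.

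**Figure D1:**
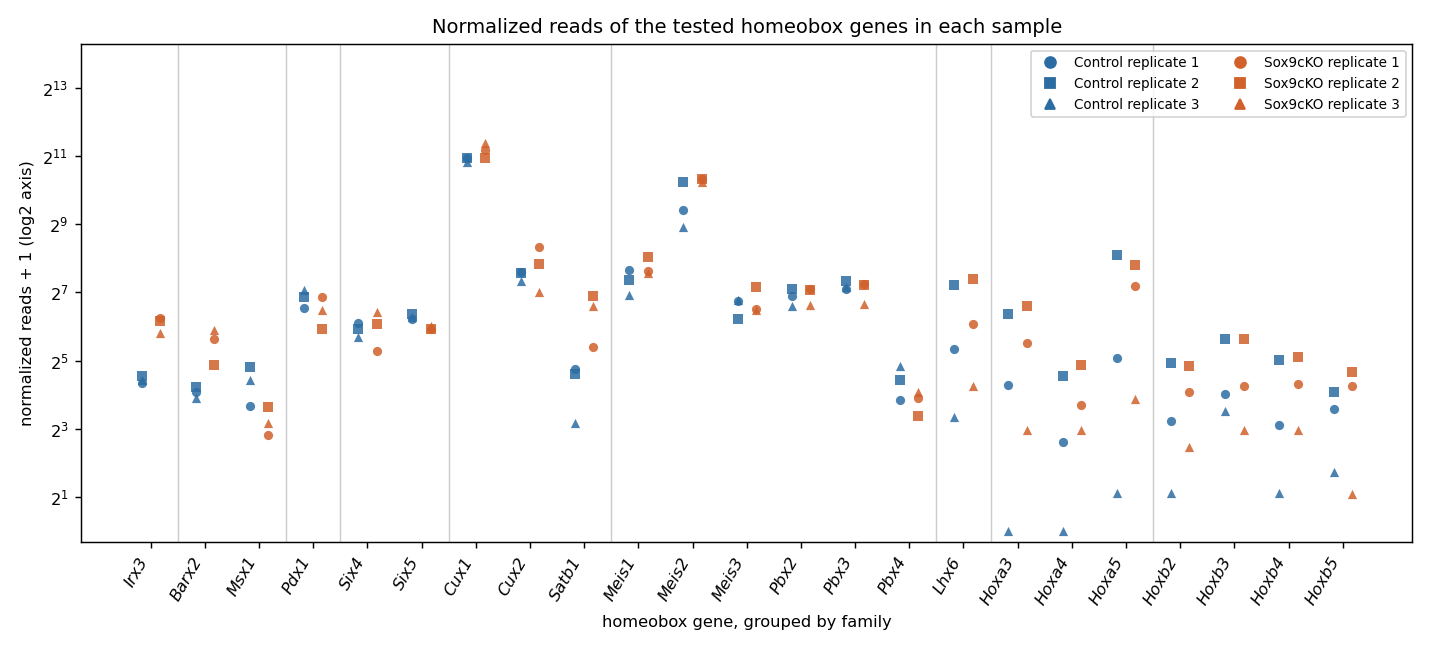
Normalized reads plus 1 on a log2 axis for 23 of the tested homeobox genes, grouped by family, with blue for Control, orange for Sox9cKO and a symbol for each replicate number. The Hox genes and Lhx6 at the right spread over the samples in the same order in both groups, while Irx3 at the left has a gap between the groups.

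Irx3 (ENSMUSG00000031734), an Iroquois factor of the TALE class known from patterning of the neural tube and limb, had 19.3, 22.3 and 20.7 normalized reads in the Control samples. In the Sox9cKO samples it had 75.6, 70.9 and 55.5. The lowest Sox9cKO sample, at 55.5, lay well above the highest Control sample, at 22.3. The mean rose from 20.8 ± 1.47 to 67.3 ± 10.5 (SD, n = 3), a log2 fold change of 1.64 ± 0.248 (SE; limma, adjusted p 0.0179). The call was lost when Control replicate 1, Control replicate 3, Sox9cKO replicate 1 or Sox9cKO replicate 2 was left out (limma, adjusted p 0.0863, 0.0695, 0.0563 and 0.0756), with log2 fold changes between 1.55 and 1.64. Irx3os, an antisense transcript that overlaps an exon of Irx3 in GENCODE M21, had at most 3.71 normalized reads in any sample. The other Iroquois genes in the table, Irx2, Irx4 and Irx5, had at most 6.91 normalized reads in any sample, and their groups overlapped.

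Barx2 and Satb1 were also higher in every Sox9cKO sample, but neither passed the threshold. Barx2 (ENSMUSG00000032033), a factor known from muscle and from epithelial branching, had 15.97, 17.6 and 13.8 normalized reads in Control and 48.8, 28.4 and 58.9 in Sox9cKO. Its log2 fold change was 1.41 ± 0.347 (SE; limma, adjusted p 0.0894). Satb1 (ENSMUSG00000023927), a chromatin organizer best known from T cells, had 26.1, 23.2 and 8.06 normalized reads in Control and 40.8, 117 and 96.2 in Sox9cKO. The log2 fold change was 2.11 ± 0.553 (SE; limma, adjusted p 0.104). The count test DESeq2 called both genes (adjusted p 0.0352 for Barx2 and 0.00414 for Satb1), with 7.08% of all genes called, whereas edgeR called neither, with 2.86% of all genes called. In the fit with the block and without a filter Satb1 was called (limma, adjusted p 0.0398), beside 6.35% of all 25302 genes. Among leukocyte markers, Ptprc, the common leukocyte antigen, had 19.6 to 37.0 normalized reads in Control and 1.13 to 16.9 in Sox9cKO. Csf1r of macrophages was called higher, the only 1 of 9 tested leukocyte and erythroid markers with a positive log2 fold change. Cd3e of T cells, also listed, was not in the table. The part of leukocyte RNA in the Satb1 values was not tested.

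**Figure D2:**
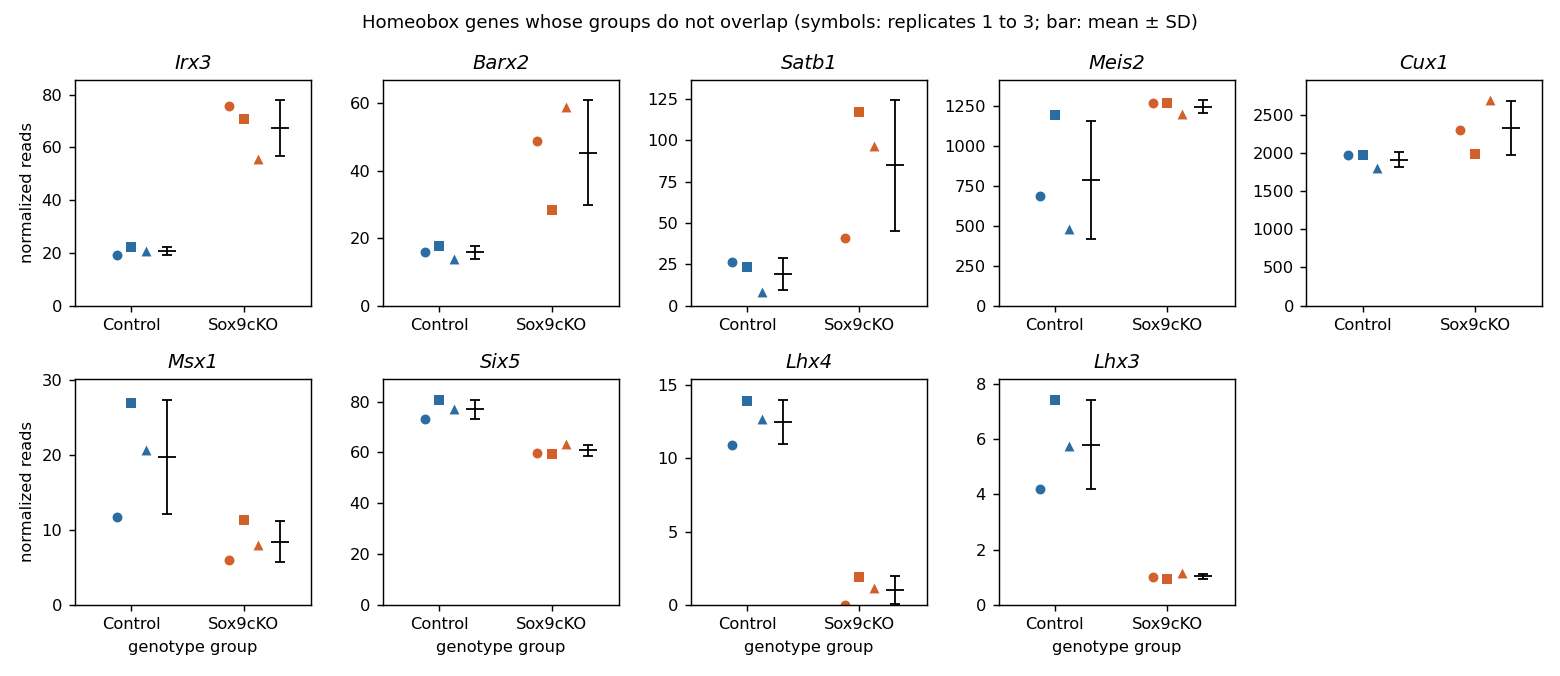
Normalized reads of 9 homeobox genes in the table whose groups did not overlap, by genotype group, with circles, squares and triangles for replicates 1 to 3 and a bar for the mean ± SD. Irx3, Barx2, Satb1, Meis2 and Cux1 are higher in Sox9cKO, and Msx1, Six5, Lhx4 and Lhx3 lower. Each panel has its own axis from 0.

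Lhx4 and Lhx3 are close relatives of the LIM homeobox family, known from motor neurons and the pituitary. Both were below the minimum for the test and were chosen for description after their values were seen. Lhx4 (ENSMUSG00000026468) had 10.9, 13.9 and 12.7 normalized reads in Control and 0, 1.89 and 1.13 in Sox9cKO. No Sox9cKO sample came near a Control sample. Summed over the samples this was 39 reads in Control against 3 in Sox9cKO, a ratio of 0.0818 after scaling (exact 95% interval 0.0162 to 0.257, for counting error only). In the fit without a filter Lhx4 was called (limma, adjusted p 0.0341), where 2.17% of all 25302 genes were, and again when the block was added (limma, adjusted p 0.0163). Lhx3 had 4.20, 7.42 and 5.76 normalized reads in Control and 0.995, 0.945 and 1.13 in Sox9cKO. It was not called without the filter (limma, adjusted p 0.108). Its sums were 18 and 3 reads, a ratio of 0.177 (exact 95% interval 0.0335 to 0.607, for counting error only).

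Msx1, a factor of mesenchyme and limb buds, had 11.8, 26.9 and 20.7 normalized reads in Control and 5.97, 11.3 and 7.92 in Sox9cKO. The highest Sox9cKO value lay just under the lowest Control value (log2 fold change -1.11 ± 0.441, SE; limma, adjusted p 0.248). Six5, a factor of muscle and lens, had 73.1, 80.7 and 77.2 in Control against 59.7, 59.5 and 63.4 in Sox9cKO (log2 fold change -0.33 ± 0.187, SE; limma, adjusted p 0.413). Its relative Six4 had overlapping groups, from 50.7 to 68.1 in Control and from 37.8 to 84.9 in Sox9cKO. Pdx1 (ENSMUSG00000029644) had 92.5, 116 and 132 normalized reads in Control and 114, 59.5 and 88.3 in Sox9cKO. Its groups overlapped, and the 95% interval of the log2 fold change ran from -1.07 to 0.25 (limma, adjusted p 0.514). The intestinal ParaHox gene Cdx2 had at most 3.71 normalized reads in any sample.

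**Figure D3:**
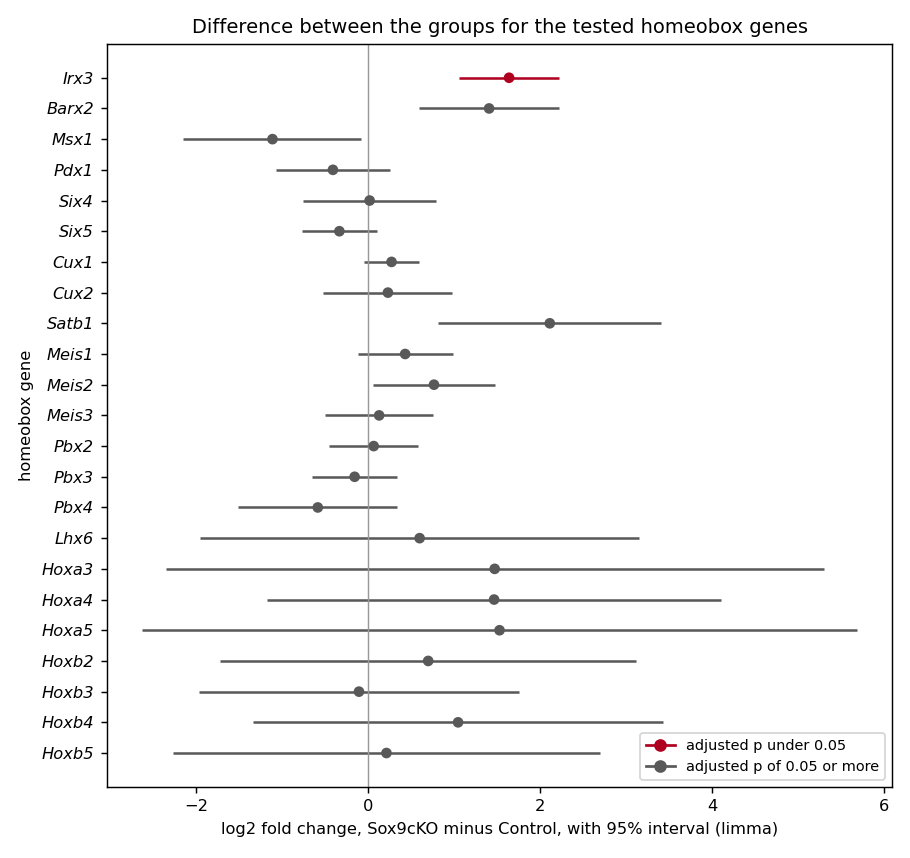
Log2 fold change between Sox9cKO and Control with its 95% interval for 23 of the tested homeobox genes, in red where the adjusted p is under 0.05. Only Irx3 is red, and the intervals of the Hox genes and Lhx6 are the widest, from -2.62 to 5.68 for Hoxa5.

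Levels of different genes were compared per length. Per kilobase of exon (GENCODE M21), the mean level over the 6 samples was 106 normalized reads for Cux1, 84.5 for Meis2, 61.2 for Hoxa5 and 46.6 for Pdx1. Meis2 (ENSMUSG00000027210), a TALE partner of Hox proteins, had 685, 1196 and 480 in Control and 1270, 1272 and 1201 in Sox9cKO. Control replicate 2 stood beside the Sox9cKO samples, and the difference was not called (log2 fold change 0.77 ± 0.301, SE; limma, adjusted p 0.244). Without Control replicate 2 Meis2 was called (log2 fold change 1.12; limma, adjusted p 0.0303). Meis1, Meis3, Pbx2, Pbx3 and Pbx4 had overlapping groups and log2 fold changes between -0.58 and 0.43.

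Among the CUT class genes, Cux1, a widely expressed repressor, had 1796 to 1970 normalized reads in Control and 1984 to 2688 in Sox9cKO. The groups only just failed to overlap (log2 fold change 0.27 ± 0.136, SE; limma, adjusted p 0.356). Cux2, its relative, had overlapping groups (log2 fold change 0.23). Of the remaining rare genes, Dlx1 had 18 reads in Control and 3 in Sox9cKO, with overlapping groups, and Dlx3 had 26 and 28. Irx2, Irx4, Irx5, Isl1, Lhx1, Lhx9, Nkx6-2 and Cdx2 had at most 10.2 normalized reads in any sample.

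The Hox genes varied much more between samples of a group than between the groups. The table held 11 genes of the Hoxa and Hoxb clusters. The Hoxc and Hoxd genes are not analysed here. Hoxa5 (ENSMUSG00000038253) had 32.8, 273 and 1.15 normalized reads in the Control samples and 145, 223 and 13.6 in the Sox9cKO samples, in the order of their replicate numbers. Replicate 2 was highest and replicate 3 lowest in both groups, and the groups overlapped almost fully. Hoxa3 followed the same order, with 18.5, 81.7 and 0 in Control and 44.8, 95.4 and 6.79 in Sox9cKO, and so did Hoxb4, with 7.57, 31.6 and 1.15 against 18.9, 33.1 and 6.79. The 0 of Hoxa3 in Control replicate 3 allows up to 3.46 normalized reads, the value of 3 reads in that library.

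The order of replicate 2 above 1 above 3 in both groups held for 10 of the 11 Hox genes, Hoxb6 being the exception, and for 7 of the 7 that were tested. Over all genes tested it held for 8.12%. The summed Hox level was 120 and 307 normalized reads in the samples numbered 1, 562 and 537 in those numbered 2, and 25.4 and 52.1 in those numbered 3, each pair given as Control and then Sox9cKO. The numbers 1 and 3 showed a higher sum in Sox9cKO and the number 2 a slightly lower one. None of the 7 tested Hox genes was called with limma or with the replicate block, 0 had an unadjusted p under 0.05 in limma, and neither edgeR nor DESeq2 called any. Their log2 fold changes ran from -0.11 (Hoxb3) to 1.53 (Hoxa5), with limma adjusted p from 0.563 to 0.966, or 0.144 to 0.881 with the block. In the fit without the block, leaving out Control replicate 3 turned Hoxa5, Hoxa3 and Hoxb2 to -0.30 each and left Hoxb4 at 0.06. That fit kept Sox9cKO replicate 3, where these genes were also lowest in their group. Between samples numbered 1 and between those numbered 2, the Sox9cKO to Control ratios were 4.43 and 0.82 for Hoxa5. They were 2.42 and 1.17 for Hoxa3, 1.89 and 0.92 for Hoxb2, and 2.50 and 1.05 for Hoxb4.

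Lhx6, a LIM homeobox gene known from interneurons and jaw mesenchyme, had the same order, with 39.5, 148 and 9.22 normalized reads in Control and 66.7, 165 and 18.1 in Sox9cKO. Lhx2, which was below the minimum for the test, and Meis2 had it as well. The genotype group took a median of 9.45% of the sum of squares of the log2 values of the 7 tested Hox genes, and the replicate number 83.6%. For Irx3 these shares were 97.0% and 1.32%. Over all genes tested the medians were 23.4% and 43.0%. The replicate number has 2 degrees of freedom and the group 1, so the shares describe these samples and are not a test.

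**Figure D4:**
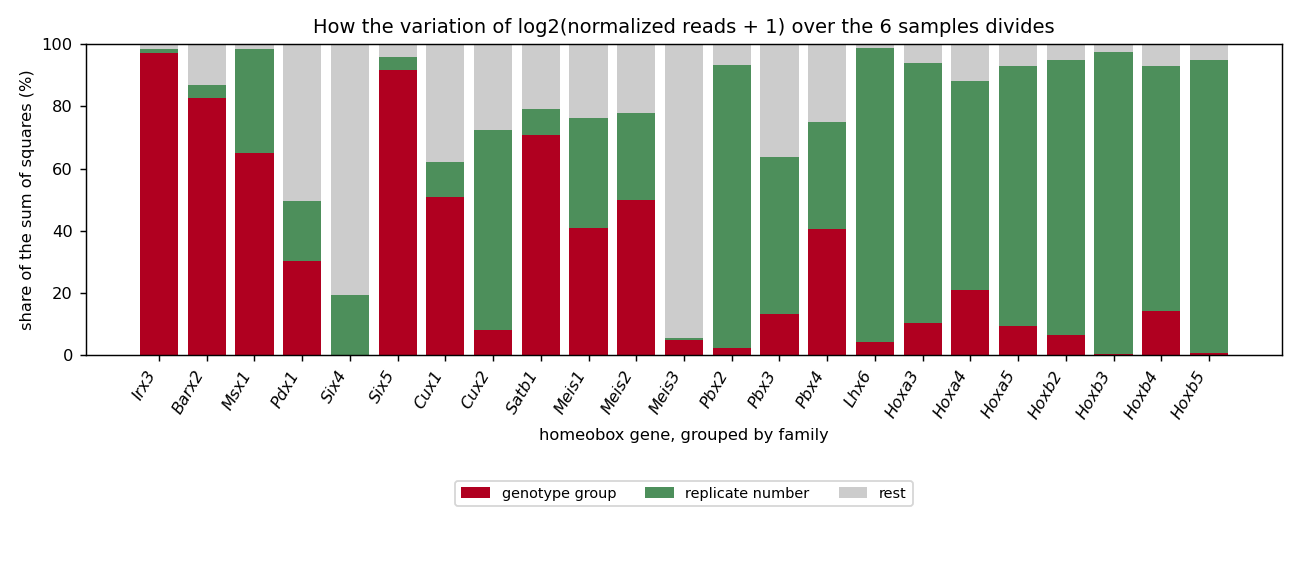
Share of the sum of squares of log2(normalized reads + 1) over the 6 samples that falls to the genotype group (red), the replicate number (green) and the rest (grey), for 23 of the tested homeobox genes. Irx3 and Six5 are nearly all red, and Lhx6 and the Hox genes mostly green.

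Markers of endothelium, the lining of vessels and sinusoids, moved with the Hox genes across the samples. All 12 of the listed markers were tested, none was at 0 in any sample, and 11 of the 12 had the order of replicate 2 above 1 above 3 in both groups. Their summed level ranged from 1866 to 42098 normalized reads in Control and from 6711 to 42711 in Sox9cKO. None was called with limma, 0 had an unadjusted p under 0.05, and 1 (Egfl7) was called with the block. The Hox genes had 9.26, 13.3 and 13.6 normalized reads per 1000 endothelial marker reads in the Control samples and 9.30, 12.6 and 7.76 in the Sox9cKO samples. This ratio thus varied 1.75-fold over the 6 samples, where the summed Hox level varied 22.2-fold. The same ratio varied 2.45-fold for Lhx6, 9.06-fold for Meis2 and 21.0-fold for Irx3. The levels of these 3 genes varied 17.9-fold, 2.65-fold and 3.91-fold. The endothelial sum itself varied 22.9-fold, so a gene with a steady level also has a widely varying ratio. In bulk samples, fewer cells of a type and less RNA per cell cannot be told apart, and the part of endothelial RNA in the Hox values was not tested.

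**Figure D5:**
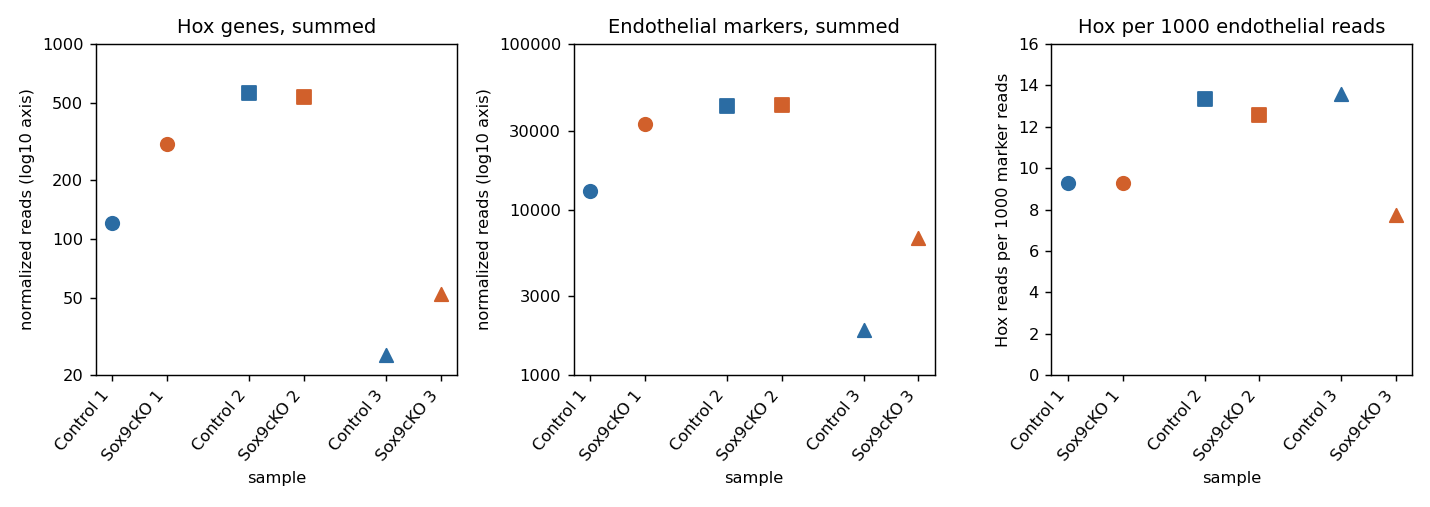
Summed normalized reads of the 11 Hox genes (left) and of the 12 endothelial markers (middle) in each sample on log10 axes, and Hox reads per 1000 endothelial marker reads on a linear axis from 0 (right). The first pair of panels shows the samples numbered 2 highest and those numbered 3 lowest in both groups, and the right panel stays between 7.76 and 13.6.

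Among markers of other cell types this order held for none of the 12 mesenchymal markers, none of the 6 mesothelial markers and none of the 11 hepatocyte markers in the table, and for 3 of 11 leukocyte and erythroid markers. The mesenchymal sum was 3484 to 4245 normalized reads in Control and 4223 to 5949 in Sox9cKO, and the hepatocyte sum 18937 to 30144 and 22966 to 37263. Reln and Rgs5 made up most of the mesenchymal sum (Control means 1705 and 1245) and Alb most of the hepatocyte sum (Control mean 21337). The log2 fold change was positive for 6 of the 12 mesenchymal markers (median 0.0082) and 7 of the 11 hepatocyte markers (median 0.35). The leukocyte and erythroid sum was 1096 to 1296 in Control and 1553 to 1857 in Sox9cKO, of which Csf1r alone had means of 761 and 1450. The other tested markers of that list all had negative log2 fold changes (1 of 9 positive, median -0.68), and none of these was called without the block. With the block 1 of them, Lyz2, was called lower (limma, adjusted p 0.0417). Markers called without the block were Krt7 of the biliary list, Tat (hepatocyte), Csf1r (leukocyte), Msln (mesothelium) and Ncam1 (nerve and glia). All were higher in Sox9cKO, as was Irx3. Their part in the Irx3 result was not tested. Of 6 listed pancreatic acinar markers, relevant to Pdx1 as a pancreatic gene, 3 were in the table. Their sum was 32.3 to 57.5 in Control and 28.4 to 184 in Sox9cKO, with the high value in Sox9cKO replicate 1. Ctrb1 alone had 174 normalized reads in that library, while Cel had 8.95 and Cela2a 0.995.

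Of 4 noncoding transcripts of the Hox clusters in the table, 3 had the order of replicate 2 above 1 above 3 in both groups. The exception, Hoxaas3, had at most 7.42 normalized reads in any sample and was higher in Sox9cKO replicate 1 than in replicate 2. Hotairm1, a noncoding RNA of the Hoxa cluster, had 11.8, 39.9 and 1.15 normalized reads in Control and 28.9, 30.2 and 5.66 in Sox9cKO. Hoxaas2, which overlaps 503 exon bases of Hoxa3, had 14.3, 36.2 and 0 in Control and 27.9, 36.9 and 11.3 in Sox9cKO. Whether counting used the strand is not given in the sources used here, so reads in the shared bases cannot be assigned to one strand. The values of Hoxa3, Hoxa4, Hoxb2 and Hoxb3 are uncertain to that extent. Outside the Hox clusters, exons of Cux1, Irx3, Meis1, Nkx6-2, Pbx2 and Satb1 also overlap other genes in the table, by up to 1029 bases (Meis1). How reads in those bases were assigned is not known either.

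Cofactors and regulators of homeobox genes were read from lists. Of 7 tested cofactors of Six4 and Six5, 1 was called higher and 1 lower, beside 2.03% and 0.939% of all genes tested. Eya4, a phosphatase that acts with these proteins, had 65.6, 30.6 and 54.1 normalized reads in Control and 361, 288 and 583 in Sox9cKO. It rose by a log2 fold change of 3.01 ± 0.358 (SE; limma, adjusted p 0.00715), with every Sox9cKO sample far above every Control sample. Tle4, a Groucho corepressor, fell from 1578 ± 287 to 834 ± 37.4 (SD, n = 3; log2 fold change -0.90; limma, adjusted p 0.0268). Of 6 TALE partners and repressors outside the symbol set, 1 was called lower and 0 higher, beside 0.939% and 2.03% of all genes. This was Tgif2, a repressor of TGF-beta and retinoid responses, which fell from 252 ± 25.5 to 145 ± 10.03 (SD, n = 3; log2 fold change -0.79; limma, adjusted p 0.0458). Leaving out a sample ended the call of Tgif2 in 6 of 6 fits and that of Tle4 in 5 of 6, and that of Eya4 in 0 of 6.

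Without the block, limma called none of the 26 Polycomb genes, the 11 Trithorax genes and H3K27 demethylases, the 7 tested LIM cofactors, the 13 tested retinoic acid genes or the 14 liver homeobox genes outside the set. Their median log2 fold changes were -0.12, -0.019, -0.071, 0.36 and -0.14, beside 0.036 over all genes. An unadjusted p under 0.05 (limma) was found for 5, 0, 1, 2 and 5 of them, against 17.8% of all genes tested. Over all lists of cofactors and regulators the number of genes called was 3 without and 12 with the replicate block, while the share of all genes called went from 2.97% to 8.05%. Among the added genes, named for that reason after their values were seen, Ezh2 (Polycomb), Mkx (TALE) and Hhex and Tshz2 (liver homeobox list) were lower in Sox9cKO. The fit gave higher levels for Onecut2 of the same list and for Aldh1a2 and Rarb, an enzyme that makes retinoic acid and a retinoic acid receptor. Their adjusted p-values with the block lay between 0.00477 (limma, Tshz2) and 0.0484 (Mkx). Hhex, whose homeodomain protein acts in liver and bile duct development, had 2043, 1276 and 1668 normalized reads in Control and 1194, 838 and 969 in Sox9cKO (log2 fold change -0.72; limma, adjusted p 0.127 without the block and 0.00980 with it).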

How the data were processed

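The authors deposited a table of normalized counts, a signal per gene and sample, and the submitters' processing notes name DESeq2 1.36.0 and the build GRCm39 without giving their roles. The aligner, the counting program, the annotation and the use of the molecular identifiers are not given in the sources used here. Dividing each column by its smallest nonzero value gave whole reads for 100% of values (tolerance 0.001 reads). No gene in the table had fewer than 10 reads in all. Each column's header number occurs in brackets in 1 sample title.

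Genes with a mean of at least 10 were tested on log2(value + 1) with limma 3.58.1 in R 4.3.3 (lmFit, eBayes with an intensity trend, two-sided), with Benjamini-Hochberg adjustment over all genes tested and a threshold of 0.05. The pseudocount of 1 understates fold changes of rare genes. Same-numbered samples deviated together (correlations across genes 0.207, 0.472 and 0.542), and the pairing comes from the replicate numbers in the labels. The analysis was repeated with a pseudocount of 0.1 or 5, without the filter or with a higher one (mean of 50), with TMM or quantile scaling, without the trend, with the replicate block, with edgeR 4.0.16 and DESeq2 1.42.0 on recovered reads, and leaving out each sample. The fit without a filter and with the block was added after seeing the data. Scripts were tested on simulated data.

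The members and lists were chosen with earlier results of these data known. Named genes were the called members, then members by p-value up to 20, the most abundant member of each family, and at most 3 called genes per list. Some genes that the rule names are not reported here. Any further gene was picked with its values in view. Exon lengths and overlaps came from GENCODE M21 on GRCm38, which held all 42 members, and coordinates are given only for the sequences shown. Floors of 3 reads and intervals cover counting error only.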

Additional observations from a re-analysis of the deposited data

How the results depend on the processing

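Sox9 stayed lower and called throughout. Of 17153 genes tested, 510 were called. The count was 1381 with the replicate block, 1160 with edgeR and the block, 1214 with DESeq2 and 1607 without a filter and with the block, and 199 to 387 when 1 sample was left out. The share of higher calls, 68.4% in the fit reported, was 63.3% with TMM factors and 60.6% with quantile normalization. The homeobox count of 1 became 2 without a filter (Irx3 and Lhx4), 0 at a minimum mean of 50, where Irx3 was not tested, 3 with DESeq2 (Irx3, Barx2 and Satb1), 3 without a filter and with the block (Irx3, Lhx4 and Satb1), and 0 to 2 when 1 sample was left out. The replicate block changed no other homeobox call. The count over the cofactor and regulator lists, 3, was 1 without the trend, 12 with the replicate block, 11 with edgeR and the block, 12 with DESeq2, 12 without a filter and with the block, and 1 to 2 when 1 sample was left out. Homeobox genes whose groups did not overlap numbered 5 at a minimum mean of 50. For these counts the cause was not tested.

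Leaving out 1 sample turned the sign of these genes, none of them called, whose log2 fold changes then ranged from -0.304 to 2.88 (Hoxa3), -0.299 to 3.20 (Hoxa5), -0.295 to 1.62 (Hoxb2), -0.779 to 0.550 (Hoxb3), -0.377 to 1.56 (Lhx6), -0.256 to 0.0295 (Pbx3) and -0.0698 to 0.584 (Cux2). Quantile normalization turned Hoxb3 to 0.00313. Over 22 named genes tested, 248 of the 255 values under the other alternatives kept their direction and their side of the threshold. Depth limits the 17 genes below the minimum, most of which had under 20 reads in a group.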

Other observations

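Cyp26b1, an enzyme that breaks down retinoic acid, stood out in a single library. It had 315, 350 and 77.2 normalized reads in Control replicates 1 to 3, 154 and 96.2 in Sox9cKO replicates 1 and 3, and 4571 in Sox9cKO replicate 2. The gene was chosen after its values were seen, and the groups did not differ beyond this spread (limma, adjusted p 0.767). Ncam1, a cell adhesion molecule placed in the nerve and glia list, had 133, 147 and 158 normalized reads in Control and 1478, 2898 and 2924 in Sox9cKO (log2 fold change 3.99; limma, adjusted p 0.00134).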
